A study of Mus musculus with 4 samples.

Results

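Pachytene spermatocytes are male germ cells in the long middle stage of the first meiotic prophase, and they were described here in the testes and counted in testicular organoids (TOs). A cell was a member if it was chosen by the following rule, which reads measured values. It had at least 1000 genes and at most 10% of its unique molecular identifiers (UMIs, counts of single captured RNA molecules) from mitochondrial genes. It also had at least 2 UMIs of Piwil1 and Pou5f2 together, at least 8 UMIs per 10000 of Piwil1, Pou5f2, Sycp1 and Sycp3 together, at most 1 UMI of Dmc1, less than 1 UMI per 10000 of Ccna1, and less than 3% of UMIs from Tnp1, Tnp2, Prm1 and Prm2. The rule found 861 members among 45878 kept cells of the series. There were 363 in testis 1, 426 in testis 2, 35 in TO 1 and 37 in TO 2.

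The study measured unsorted cells by droplet 3' single-cell RNA sequencing (scRNA-seq). The testes came from mice that were 28 days old. The TOs were aggregates of dissociated testis cells of immature ICR mice, embedded in Matrigel and cultured at the air-liquid interface, and the series design and the study's methods give their age as 28 days, while the dissociation protocol in the labels names day 21. There were 2 libraries of each kind, with no genetic change named in either. The medium of the TOs held testosterone, follicle-stimulating hormone and the antioxidants ascorbic acid, tocopherol and glutathione, whereas the testes were not cultured, and the sources do not say how many animals or organoids went into a library. The libraries held 77016449 and 74988295 UMIs in testes and 106577822 and 119966959 UMIs in TOs. Cell barcodes shared between any pair of libraries numbered 30 to 55, and none of these was a member in both.

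In pachytene, homologous chromosomes are held together along their length by the synaptonemal complex, and the DNA breaks made earlier by SPO11 are repaired, some of them as crossovers. The X and Y chromosomes lack a partner over most of their length and are gathered in the sex body, where their genes are silenced. The nucleus is otherwise highly active: genes for sperm metabolism, small RNAs of the piRNA class and many later spermatid proteins are switched on, in large part by the factors A-MYB (Mybl1) and TCFL5, and some of the new transcripts are stored by RNA-binding proteins such as YBX2.

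Promoters of 4 genes are shown because the genes mark the axes of the results: Piwil1 (chosen by the rule), Hspa2 (the heat shock protein of spermatocytes), and the pair Pgk1 on the X chromosome and Pgk2, its intronless copy on chromosome 17. The sequences are RefSeq, build GRCm38.p6, from 250 bases before to 50 after a gene start, and capitals mark the letters CAGTTG or its reverse complement CAACTG, a core of sites for MYB factors. Piwil1 is at chr5:128735996-128736295 on the plus strand, Hspa2 at chr12:76404120-76404419 on the plus strand, Pgk1 at chrX:106186850-106187149 on the plus strand and Pgk2 at chr17:40208560-40208859 on the minus strand.
Piwil1: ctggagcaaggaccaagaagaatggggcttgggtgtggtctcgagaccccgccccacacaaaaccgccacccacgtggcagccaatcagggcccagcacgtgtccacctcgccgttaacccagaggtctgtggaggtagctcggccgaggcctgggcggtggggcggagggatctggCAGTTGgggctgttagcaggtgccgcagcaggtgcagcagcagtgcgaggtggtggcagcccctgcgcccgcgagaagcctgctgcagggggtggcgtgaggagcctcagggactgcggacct
Hspa2: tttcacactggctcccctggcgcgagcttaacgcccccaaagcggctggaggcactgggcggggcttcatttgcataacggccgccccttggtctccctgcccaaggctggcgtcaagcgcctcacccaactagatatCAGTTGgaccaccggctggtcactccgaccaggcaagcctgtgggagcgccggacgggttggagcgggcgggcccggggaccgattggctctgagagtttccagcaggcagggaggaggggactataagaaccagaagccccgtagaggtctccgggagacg
Pgk1: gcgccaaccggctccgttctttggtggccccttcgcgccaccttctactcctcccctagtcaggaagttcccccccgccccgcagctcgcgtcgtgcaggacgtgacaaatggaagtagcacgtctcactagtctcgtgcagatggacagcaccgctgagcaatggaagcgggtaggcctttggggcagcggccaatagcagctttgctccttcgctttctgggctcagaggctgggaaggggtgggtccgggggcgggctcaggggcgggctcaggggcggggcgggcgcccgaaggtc
Pgk2: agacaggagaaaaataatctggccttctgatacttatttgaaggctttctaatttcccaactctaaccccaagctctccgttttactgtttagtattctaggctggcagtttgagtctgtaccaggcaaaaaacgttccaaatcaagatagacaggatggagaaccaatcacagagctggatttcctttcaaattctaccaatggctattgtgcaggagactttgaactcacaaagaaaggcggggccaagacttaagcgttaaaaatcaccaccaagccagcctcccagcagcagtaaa
The letters were found once in the Piwil1 sequence, starting 73 bases before the gene start, and once in the Hspa2 sequence, 112 bases before it. Neither Pgk sequence held them. The promoter entries of Tdrd1 and Ldhc, which were also searched and are not printed, did not hold them either. Of 32534 promoters of this length, 13.6% held the motif on either strand. It was in 4 of the 22 piRNA genes listed below, of which 18 had a promoter entry. No sequence shown held TGACGTCA, the full site of CRE-binding factors, which was in 1.80% of all promoters.

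Members were large libraries of RNA, but not uniformly so. The median was 15217 UMIs and 4828 genes in testis 1, 10094.5 UMIs and 3858 genes in testis 2, 33069 UMIs and 6662 genes in TO 1 and 34696 UMIs and 6800 genes in TO 2. The other testis germ cells used for comparison, chosen by equally simple rules, bracket pachytene. Cells with at least 2 UMIs of Dmc1 and of Sycp3 (150 and 167 in the testes), earlier in prophase, had medians of 4755 and 5204 UMIs. Cells that passed the member rule except for Ccna1, which was at 1 UMI per 10000 or more (106 and 244), had medians of 16688 and 18192.5 UMIs. Early spermatids chosen on Acrv1, Spaca7 and Tex36 (3194 and 1422) had medians of 3015 and 2686 UMIs. After thinning to 5000 UMIs a cell, members of the testes gave 2569 and 2523 genes, Dmc1 cells 2881 and 2832.5, and Ccna1 cells 2439 and 2398. This left out 106 and 162 shallower members, 79 and 81 Dmc1 cells, and 31 and 62 Ccna1 cells. The study's own upper limits, 5000 genes and 20000 UMIs, would have left out 44.4% and 40.8% of the testis members and 71.4% and 73.0% of the TO members.

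Checked against X-linked silencing and spermatid genes, the label fitted the deeper members better than the shallow ones. Members under 5000 UMIs numbered 106 in testis 1 and 162 in testis 2. Their X-linked share of UMIs, which silencing lowers in pachytene, was 1.03% and 0.551%, against 0.244% and 0.106% in members from 5000 UMIs. Their summed level of the round spermatid list was 18.3 and 12.0 UMIs per 10000, against 2.55 and 2.00. That of the lists of somatic cell genes was 15.6 and 5.48, against 3.58 and 1.20. The part of other cells' RNA in the X-linked share was not tested. Hormad1 was at 1.45 and 3.64 UMIs per 10000 in the shallow members and at 4.05 and 5.11 in the deeper ones. All levels below are UMIs summed over the members of a library and given per 10000 of their total, so the deeper members carry most of the weight (5237697 of 5486579 UMIs in testis 1). They are counts of 3' ends and were not divided by transcript length. Values are given without shallow members where that matters.

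**Figure D1:**
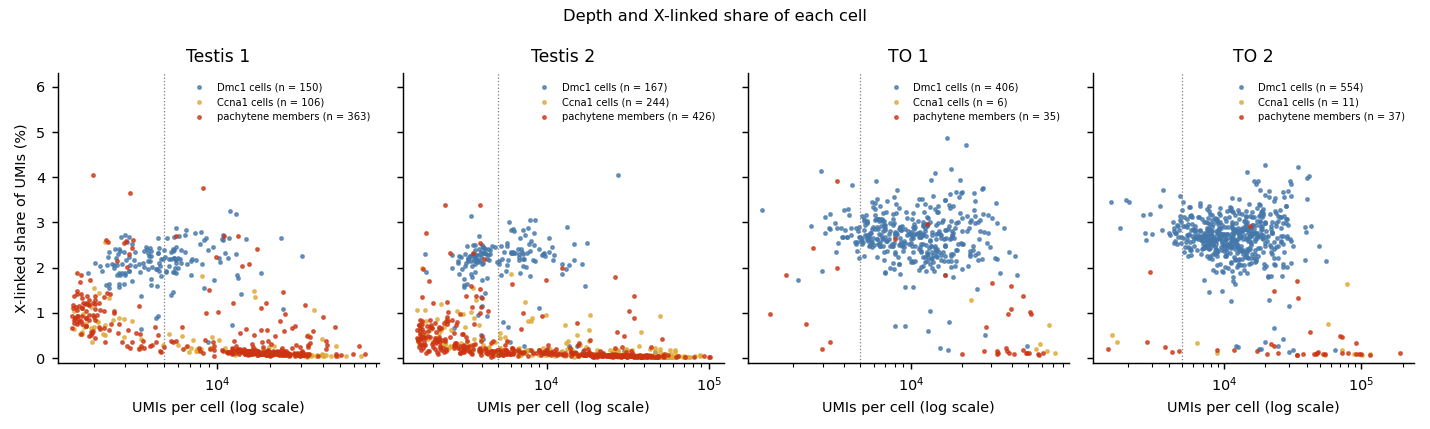
Each point is a cell, with its UMIs on a log axis and the percent of its UMIs from X-linked genes on a linear axis, for pachytene members, Dmc1 cells and Ccna1 cells in each of the 4 libraries. The dotted line marks 5000 UMIs. Most testis members to the right of it lie below 0.2%, and Dmc1 cells lie around 2%.

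Cells lay close to the thresholds on both sides. The limit of 8 UMIs per 10000 on the 4 markers took the candidates from 741 to 479 cells in testis 1 and from 978 to 703 in testis 2, and the limit on Ccna1 took them from 474 to 366 and from 687 to 439. In testis 2 the 49 cells just inside it, at 0.5 to 1 UMI per 10000 of Ccna1, had Aurka at 1.72 and Piwil1 at 5.63 UMIs per 10000, and the 41 cells just outside, at 1 to 1.5, had Aurka at 2.60 and Piwil1 at 3.68. Just inside the limit on Dmc1, 28 cells of testis 2 with 1 UMI had Sycp3 at 13.6 UMIs per 10000 and an X-linked share of 0.220%, and the 4 cells with 2 UMIs had 29.8 and 0.335%. In testis 1 the 10 cells with 1 UMI had 8.33 and 0.538%, and the 2 cells with 2 UMIs had 13.2 and 2.05%. The 27 and 25 testis cells just inside the 4-marker limit (8 to 10 per 10000) had X-linked shares of 0.805% and 0.747%, and the 35 and 26 just outside it (6 to 8) had 1.27% and 1.36%. Only 3 and 13 cells in the testes, and none in TOs, were removed by the limit on Tnp and Prm genes alone.

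Since the rule chose cells on 4 of these genes, and the comparison cells on Dmc1 and Ccna1, the levels that follow are a description, with no test. As a background, 10464 genes reached 0.1 UMIs per 10000 in at least 1 of the 3 cell groups of each testis. The members held the highest level in both testes for 13.9% of them, Dmc1 cells for 50.8% and Ccna1 cells for 22.2%. In both testes 35.1% of these genes were higher in members than in Dmc1 cells and 57.0% were higher in members than in Ccna1 cells.

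Genes of the chromosome axis and synaptonemal complex were expressed in members but were mostly higher in Dmc1 cells. Of 19 genes, 17 were highest in Dmc1 cells in both testes, beside 50.8% of all genes. Of the same genes, 15 were higher in members than in Ccna1 cells, beside 57.0% of all genes. The rule genes Sycp1 and Sycp3 are among the 17 and among the 15. Sycp3 also chose the Dmc1 cells, and nothing is read from either gene. Sycp3, of the lateral element, was at 6.38 and 9.36 UMIs per 10000 in members of testis 1 and 2, against 9.41 and 18.7 in Dmc1 cells and 4.24 and 5.19 in Ccna1 cells. Sycp1, the transverse filament, was at 2.68 and 4.78 in members and at 8.11 and 14.2 in Dmc1 cells. Hormad1, an axis protein that is removed on synapsis, was at 3.93 and 5.02, close to the 4.41 of Dmc1 cells in testis 1 and below the 7.81 in testis 2. Syce2, of the central element, was at 7.91 and 9.09 in Dmc1 cells and at 1.51 and 1.97 in members. Syce1, also of the central element, had the opposite order in both testes. It was at 2.52 and 2.02 in Dmc1 cells, 4.18 and 3.54 in members, and 5.53 and 4.83 in Ccna1 cells. The meiotic cohesin gene Rad21l was near 0 in members (0.41 and 0.51 in Dmc1 cells), while Stag3 remained at 2.17 and 1.86.

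Most recombination genes were lower in members than in Dmc1 cells, and a few were at their highest. Of 32 recombination genes, 26 were highest in Dmc1 cells, Dmc1 itself by selection, and 4 in members in both testes. Over all genes these shares were 50.8% and 13.9%. Prdm9, which marks break sites, was at 1.09 and 1.04 UMIs per 10000 in Dmc1 cells and listed at or near 0 in members. Mei4, needed for breaks, was at 0.72 and 0.73 in Dmc1 cells and at 0.01 in both testes in members. Tex15 was at 8.46 and 7.13 in Dmc1 cells and at 0.14 and 0.11 in members. The 4 genes highest in members were Spo11 (0.74 and 1.25 UMIs per 10000), Psmc3ip (5.55 and 6.78), a partner of the strand exchange proteins, Mlh3 (0.85 and 1.15), which acts at crossovers, and Cntd1 (1.63 and 1.71), which is needed to mature crossovers. In Dmc1 cells Mlh3 was at 0.32 and 0.40, and Spo11 at 0.38 and 0.73.

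**Figure D2:**
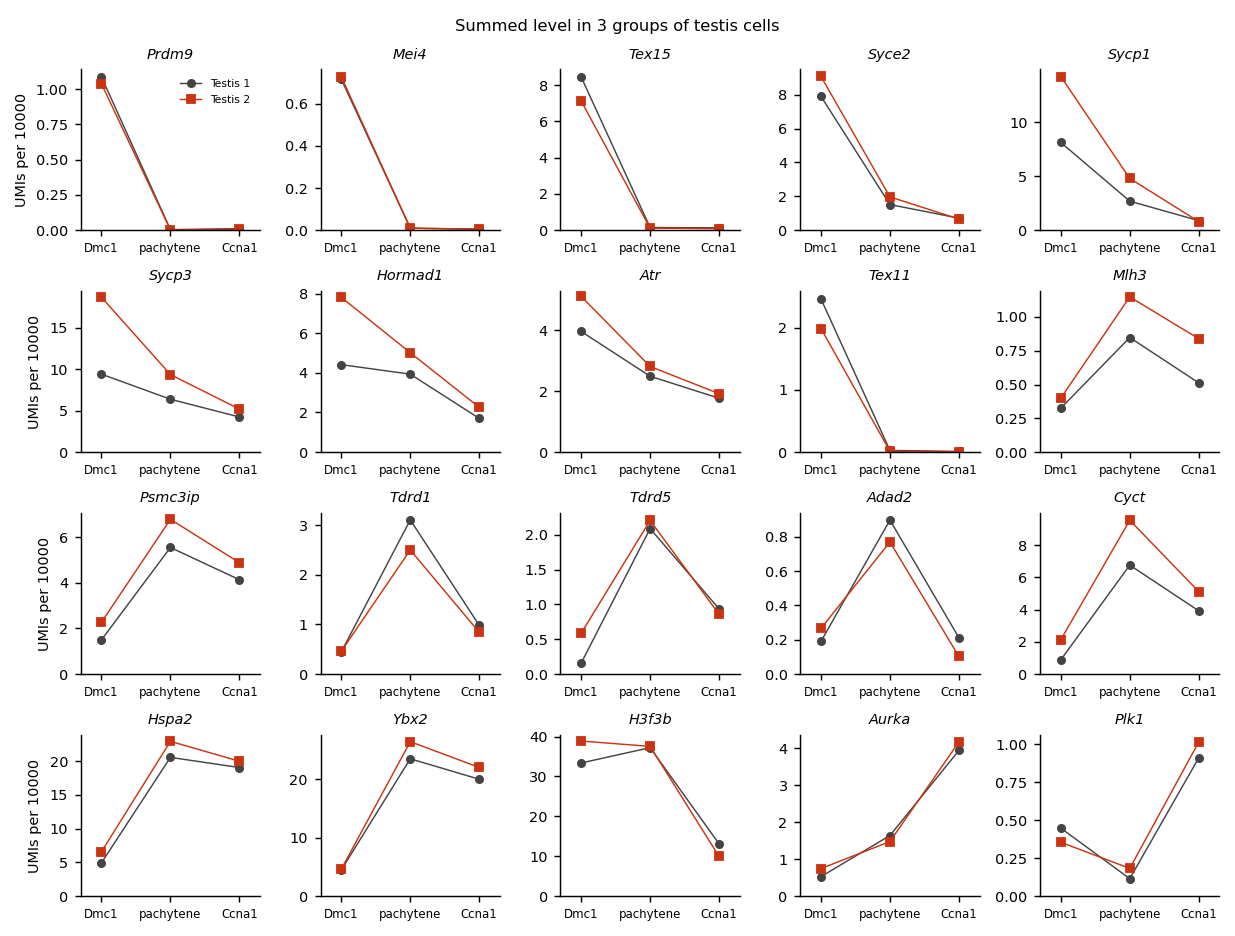
Summed levels of 20 genes in UMIs per 10000 (linear axes from 0), in Dmc1 cells, pachytene members and Ccna1 cells of testis 1 and testis 2. Prdm9 is lower in members than in Dmc1 cells, Tdrd1, Cyct and Mlh3 peak in them, and Aurka and Plk1 are highest in Ccna1 cells.

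The X chromosome was nearly silent in the members. X-linked genes gave 0.280% of UMIs in members of testis 1 and 0.134% in testis 2, against 2.14% and 1.87% in Dmc1 cells, 0.186% and 0.108% in Ccna1 cells, 1.56% and 1.31% in early spermatids and 2.74% and 2.75% in Leydig cells of the same libraries. The share in members was 0.130 and 0.0716 of that in Dmc1 cells, while for single autosomes this ratio lay between 0.888 and 1.25 in testis 1 and between 0.889 and 1.26 in testis 2. Chromosome 17 had the highest ratio. Of the members from 5000 UMIs, 193 of 257 and 234 of 264 had an X-linked share under 0.2%. Those at 1% or more numbered 15 and 6, and 13 and 3 of them held at least 10 UMIs per 10000 from lists of somatic cell genes. Y-linked genes also gave less, at 0.00995% and 0.00665% of UMIs against 0.0951% and 0.0983% in Dmc1 cells.

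**Figure D3:**
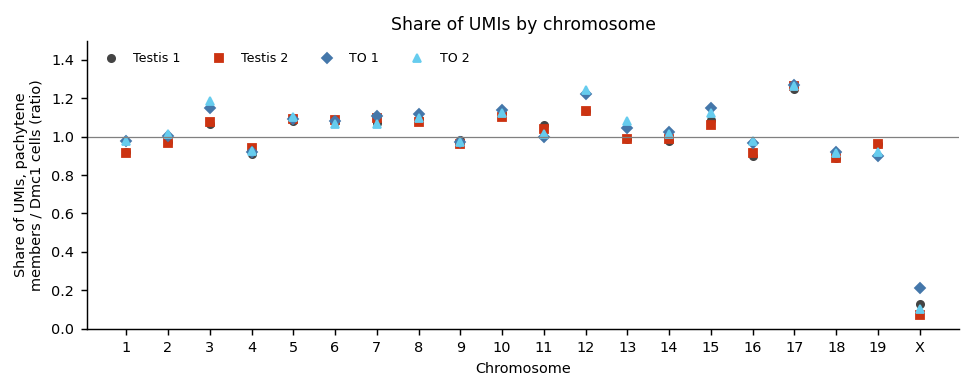
For each autosome and the X chromosome, the share of UMIs in pachytene members divided by that in Dmc1 cells of the same library (ratio, linear axis from 0), with a symbol for each of the 4 libraries. Every autosome lies between 0.888 and 1.27, and the X chromosome lies at 0.130, 0.0716, 0.209 and 0.101 in testis 1, testis 2, TO 1 and TO 2. The Y chromosome is not drawn.

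By gene, 366 of 369 X-linked genes that reached 0.1 UMIs per 10000 in Dmc1 cells of testis 1 were lower in members, and all 328 in testis 2. The median ratio was 0.0814 and 0.0331, against 0.644 and 0.675 for autosomal genes. Germline genes on the X chromosome were among them. Tex11, which acts in crossover formation, was at 2.46 and 1.99 UMIs per 10000 in Dmc1 cells and 0.03 and 0.02 in members. Scml2, a germline Polycomb protein, was at 2.64 and 3.65 and at 0.04 and 0.02, and Taf7l, a germline transcription factor subunit, at 3.85 and 4.37 and at 0.08 and 0.04. Among the 8 X-linked genes with the highest level in testis members were Tmsb4x, Tsga8, Ndufa1, Slxl1, Gm5941, Akap4 and Prdx4. Ndufa1, a subunit of respiratory complex I, stood at 0.73 and 0.44 in members, compared with 3.15 and 2.62 in Dmc1 cells and 0.50 and 0.26 in early spermatids. Akap4 and Tsga8, genes of spermatids, were at 0.29 and 0.27 and at 0.99 and 0.49 in members, and at 2.75 and 2.70 and at 9.99 and 6.37 in early spermatids. Whether their UMIs in members are from free RNA was not tested.

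Genes of the sex body itself differed in level. Of 10 listed, 7 were highest in Dmc1 cells in both testes and none in members, beside 50.8% and 13.9% of all genes. With so few genes, nothing is read from these counts. Atr, the kinase that spreads over the unsynapsed X and Y, was at 2.49 and 2.81 UMIs per 10000, against 3.95 and 5.10 in Dmc1 cells, and Mdc1, its adaptor, was at 1.504 and 1.41, against 1.59 and 1.89. H2afx, the histone that ATR marks, was at 1.63 and 2.67, above Dmc1 cells in testis 1 (1.46) and below them in testis 2 (3.79).

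Autosomal copies of X-linked housekeeping genes were expressed to very different degrees. Over 8 pairs the X-linked parents summed to 0.51 and 0.24 UMIs per 10000 in members and the autosomal copies to 20.7 and 26.3, against 3.89 and 2.84, and 9.43 and 10.5, in Dmc1 cells. For the pyruvate dehydrogenase subunit, Pdha1 had 3 UMIs in each testis and Pdha2 was at 3.00 and 5.38 UMIs per 10000. The splicing factor pair had Rbmx at 0.0146 and 0.00707 and Rbmxl2 at 5.78 and 7.37. The centrins had Cetn2 at 0.0237 and Cetn1 at 9.22 in testis 1. For ribosomal protein L10, Rpl10 was at 0.179 and 0.0509 and Rpl10l at 1.36 and 1.33. Pgk2, whose promoter is printed above, was low in members (0.80 and 0.64) and higher in Ccna1 cells (2.65 and 1.82), and Pgk1 was at 0.0747 and 0.0311. Utp14b (0.0893 and 0.123) did not exceed its parent in testis 1 (Utp14a at 0.12 and 0.0877), and G6pd2 had only 7 and 5 UMIs.

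The piRNA pathway, which silences transposons and processes long precursors into small RNAs, was the list with the largest number of genes at their highest in members. Of 22 genes, 9 were highest in members in both testes, 6 in Dmc1 cells and 4 in Ccna1 cells, and 21 were above the level of Leydig cells, used as a gauge of free RNA. Over all genes, 13.9%, 50.8% and 22.2% were highest in members, Dmc1 cells and Ccna1 cells. Piwil1 is 1 of the 9 by selection, and the next list, the energy genes, had 6. Piwil1, a rule gene that encodes the PIWI protein of pachytene, was at 7.86 and 7.16 UMIs per 10000, against 0.19 and 0.52 in Dmc1 cells and 0.22 and 0.11 in Leydig cells. Tdrd1, a tudor scaffold, was at 3.11 and 2.50 (0.45 and 0.46 in Dmc1 cells, 0.98 and 0.84 in Ccna1 cells). Tdrd5, which is needed for pachytene piRNA processing, was at 2.09 and 2.21 (0.16 and 0.59 in Dmc1 cells). Pld6, a mitochondrial nuclease, was at 1.00 and 1.17 (0.12 and 0.18) and Adad2 at 0.90 and 0.77 (0.19 and 0.27). Mael, of the nuage, was at 7.06 and 6.84 (2.98 and 3.04), and stayed high in Ccna1 cells (6.66 and 5.92). Mov10l1, the helicase that feeds precursors into the pathway, was lower in members (1.35 and 1.36) than in Dmc1 cells (2.13 and 3.27). Piwil4, the fetal PIWI protein, was absent or nearly so in all 3 groups. Btbd18, known to promote transcription of pachytene precursors, was at 0.02 in members of both testes and at 0.35 and 0.46 in Dmc1 cells.

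The 16 transcription regulators listed differed in level. Stra8, which starts meiosis, was at 3.01 and 2.17 UMIs per 10000 in Dmc1 cells and 0.01 and 0.02 in members. Tcfl5 was at 6.22 and 7.05 in members (1.56 and 2.34 in Dmc1 cells), Rfx2, a factor of the ciliary and spermatid program, at 1.33 and 1.51 (0.47 and 0.50), and Kctd19, a meiotic chromatin regulator, at 2.27 and 2.65 (0.38 and 0.89). Mybl1, which encodes A-MYB, was only at 0.85 and 1.24, above Dmc1 cells in testis 1 (0.56) and below them in testis 2 (1.31). Pou5f2, a rule gene, was at 0.78 and 1.53, and at 3.46 and 4.35 in Ccna1 cells. Of the 15 RNA-binding genes listed, the highest were Ybx3, Ybx2 and Pabpc1. Ybx2 and Ybx3, which package stored mRNA, were at 23.5 and 26.4 and at 28.0 and 37.3 UMIs per 10000 (4.48 and 4.61, and 6.43 and 5.64, in Dmc1 cells), and Pabpc1, the poly(A)-binding protein, at 17.8 and 21.5 (6.10 and 8.48). Dazl, the translational regulator of early germ cells, was at 1.60 and 3.08, against 10.5 and 19.6 in Dmc1 cells.

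Energy and chaperone genes ranged widely in level. Ldhc, the germ cell lactate dehydrogenase, had the highest mean level of both testes among nuclear genes, at 55.7 and 50.4 UMIs per 10000, with 15.8 and 9.70 in Dmc1 cells, 67.3 and 59.7 in Ccna1 cells, and 14.5 and 7.81 in Leydig cells, which gauge the free RNA. Of 16 energy genes, 6 were highest in members in both testes, beside 13.9% of all genes. Cyct, the testis cytochrome c, was at 6.76 and 9.54 (0.88 and 2.13 in Dmc1 cells), whereas somatic Cycs was at 0.20 and 0.21 (0.92 and 1.26). Cox6b2, a testis subunit of cytochrome oxidase, was at 17.9 and 14.9 (3.72 and 3.52), and Slc2a3, a glucose transporter, at 10.4 in both testes (0.92 and 1.28). Gapdhs, the spermatid glyceraldehyde dehydrogenase, was still at 0.53 and 0.66, below Leydig cells (1.00 and 1.10). Hspa2, the chaperone needed to leave pachytene, was at 20.6 and 22.9 (4.93 and 6.57 in Dmc1 cells) and Hsp90aa1 at 42.2 and 41.5 (32.9 and 31.0 in Ccna1 cells). Hspd1 and Hspa8, which other cells use, were at 0.18 and 0.17 and at 1.72 and 1.18, against 3.00 and 2.83 and 4.79 and 3.94 in Dmc1 cells.

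Of 9 histone genes found, all 9 were higher in members than in Ccna1 cells, beside 57.0% of all genes. Among them, Hils1 was at 0.93 and 0.60 UMIs per 10000 in members, 0.92 and 0.44 in Ccna1 cells and 2.00 and 1.02 in Leydig cells. H2al2a was at 0.22 and 0.28 in members, also below Leydig cells (0.37 and 0.59). H3f3b, which encodes histone H3.3, was at 37.2 and 37.5 UMIs per 10000 in members, 33.4 and 38.9 in Dmc1 cells and 13.1 and 9.94 in Ccna1 cells. Hist1h1t, the testis linker histone, was at 0.83 and 1.45, against 0.21 and 0.34 in Dmc1 cells and 0.30 and 0.48 in Ccna1 cells. Of 15 division genes, 9 were highest in Ccna1 cells in both testes, Ccna1 itself by selection, beside 22.2% of all genes. Aurka, the spindle kinase, was at 1.64 and 1.48 (3.94 and 4.18 in Ccna1 cells) and Plk1 at 0.11 and 0.18 (0.91 and 1.02), while Ccnb2, a B-type cyclin, was already at 2.47 and 2.34 (3.22 and 3.16). Of 12 checkpoint and apoptosis genes, 10 were highest in Dmc1 cells, beside 50.8% of all genes in both testes. Trp53 was at 0.20 and 0.22 and Bax, which promotes apoptosis, at 0.26 and 0.30 (1.29 and 1.35 in Dmc1 cells). Mdm2 and Bcl2l1, which restrain p53 and apoptosis, were at 1.80 and 1.83 and at 1.32 and 1.27.

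Transcripts for sperm proteins were already present in members. Of 18 genes, 12 were higher in members than in Dmc1 cells in both testes, beside 35.1% of all genes. Of the same genes, 10 were highest in Ccna1 cells, beside 22.2% of all genes. Meig1, needed for the sperm flagellum, was at 43.2 and 42.7 UMIs per 10000 (13.9 and 11.6 in Dmc1 cells), Ropn1l at 19.6 and 23.1 (7.53 and 5.62), Crisp2 at 13.2 and 14.6 (4.47 and 3.70) and Calm2, a calmodulin gene, at 31.7 and 39.9 (4.76 and 13.3). Calm2 and Adam2 were the ones highest in members, and Calm2 was at 1.82 and 2.52 in early spermatids. In contrast Tssk1, Tssk2 and Spag6 were below Leydig cells in both testes.

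The 15 most abundant nuclear genes of testis members took 5.47% and 5.83% of their UMIs. After Ldhc these were Rsph1, a radial spoke protein (44.7 and 55.8 UMIs per 10000), Cox8c, a cytochrome oxidase subunit (49.2 and 48.3), Meig1, Hsp90aa1, H3f3b, Ubb, Ybx1, Calm2, Eef1a1, Ybx3, Lyar, Fabp9, Ppia and Tuba3b. Genes most restricted to the members were ranked by the ratio of their level to the higher of Dmc1 and Ccna1 cells, taking the lower of both testes. Of 2066 genes at 1 UMI per 10000 or more in both, 583 exceeded both neighbours and 20 did so by more than 2-fold. The 15 leading ones were Gm21221 (3.88-fold), Tdrd1 (2.97-fold), 2700054A10Rik, Gstt2, Gm31181, Dnm3, AC163638.2, Gm21269, Gm50166, 9330102E08Rik, Stambp, Elfn2, 4930579G24Rik, Cyp19a1 (2.28-fold) and Piwil1 (2.24-fold, a rule gene). Many of these have names only and no assigned role. Cyp19a1, the aromatase that makes oestrogen, was at 4.94 and 3.84 UMIs per 10000 in members, 0.10 and 0.03 in Dmc1 cells and 2.17 and 1.48 in Ccna1 cells.

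Members of 1 testis differed among themselves along the same course. The 231 and 257 testis members with at least 5000 UMIs and less than 10 UMIs per 10000 of somatic genes were put in order by the ratio of late genes (Ldhc, Pgk2, Ybx2 and Acr) to early ones (Meiob, Hormad1, Spata22, Prdm9 and Smc1b) and split into terciles, so these 9 genes are not findings. The rule sets limits on Sycp1, Sycp3, Pou5f2 and Piwil1, so their levels below are given as a description and nothing is read from them. From the early to the late tercile Sycp1 went from 5.45 to 0.943 UMIs per 10000 in testis 1 and from 12.5 to 1.32 in testis 2. Hormad2 went from 2.01 to 0.340 and from 2.75 to 0.262, Dazl from 3.08 to 0.608 and from 8.81 to 0.736, and H3f3b from 52.7 to 25.1 and from 57.5 to 23.2. Sycp3 went from 8.95 to 4.85 and from 15.5 to 6.06, and Syce1 from 3.43 to 4.93 and from 2.53 to 4.24. Pou5f2 went from 0.0891 to 1.41 and from 0.0847 to 2.78, while Piwil1, which shares the rule with it, went from 9.56 to 6.60 and from 8.41 to 6.03. Tdrd1 went from 4.41 to 2.22 and from 3.19 to 2.03.

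Tbpl1 and Adam3 were higher in the late tercile in both testes. Tbpl1, a germ cell relative of the TATA-binding protein, was at 3.84 and 4.51 UMIs per 10000 in the early tercile and at 7.89 and 11.8 in the late one, and Adam3 at 1.72 and 1.28 and at 4.74 and 5.01. Ccna1, held low by the rule, still went from 0.138 to 0.361 and from 0.0977 to 0.412. Median UMIs went from 15031 to 22798 in testis 1 and from 17487 to 33919 in testis 2. The X-linked share was already low in the early tercile, at 0.162% and 0.110%, and was 0.144% and 0.0671% in the late one. In testis 1 the middle tercile was the highest, at 0.174%.

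**Figure D4:**
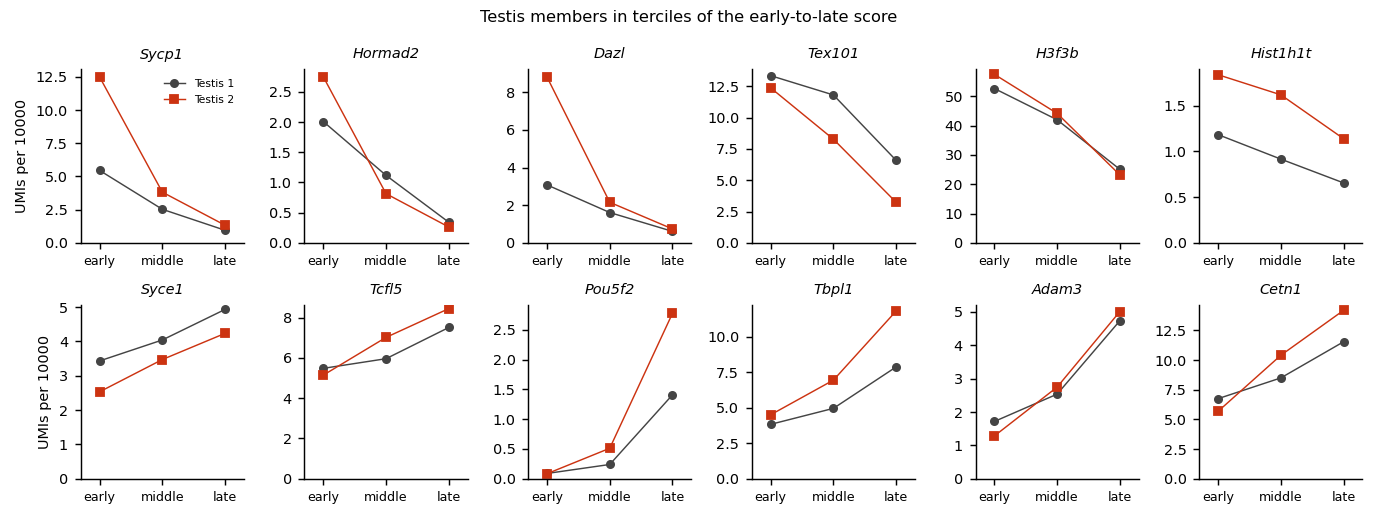
Summed level in UMIs per 10000 (linear axes from 0) of 12 genes that were not part of the score, in the early, middle and late tercile of testis members, for testis 1 and testis 2. Sycp1, Hormad2, Dazl, Tex101, H3f3b and Hist1h1t go down and Syce1, Tcfl5, Pou5f2, Tbpl1, Adam3 and Cetn1 go up in both testes. Sycp1 and Pou5f2 are rule genes, and nothing is read from them.

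Both testes gave much the same profile. Of 1183 genes at 2 UMIs per 10000 or more in either, 89.4% differed by less than 1.5-fold between testis 1 and testis 2 and 30 by more than 2-fold. Among the 8 genes with the largest ratio toward testis 1 were Gm10076, Sap18, Rpl35, Rps28, Rps21, Rps29 and Rps27, mostly ribosomal. Rps28, of the small ribosomal subunit, was at 11.8 UMIs per 10000 in testis 1 and 4.16 in testis 2, but also at 12.1 and 4.19 over all kept testis cells, so other cells held the difference too. Toward testis 2 they were Pdzd9, Prm2, Gm42418, Snrpf, Hoxa4, Mgat4d, Tex12 and Arl6ip6. Prm2, a protamine gene, was at 1.61 and 7.63 in members and at 2.87 and 17.4 in Leydig cells. Tex12, of the central element, was at 1.14 and 2.61.

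Few cells of TOs passed the rule. They were 0.292% of kept cells in TO 1 (95% exact binomial interval 0.203% to 0.405%, counting error only) and 0.338% in TO 2 (0.238% to 0.465%), against 3.08% (2.77% to 3.40%) and 3.83% (3.48% to 4.20%) in the testes. Every TO library was below both testes, with a mean difference of -3.14 percentage points. The exact two-sided permutation test over 2 against 2 libraries gave p = 0.333, the smallest it can give. These shares are of all kept cells, somatic cells included. The study reported that germ cells were a much smaller part of TO cells than of testis cells. The share of members among germ cells was not computed, so a shortage of members among TO germ cells is not shown. Dmc1 cells were not scarce in TOs (406 and 554), and Ccna1 cells numbered 6 and 11. TO members were also deeper, with 33069 and 34696 median UMIs against 15217 and 10094.5, and the part of depth in the shares was not tested.

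The X-linked share in TO members was 0.555% and 0.267%, against 0.280% and 0.134% in testis members (exact permutation test, two-sided p = 0.667 with 2 libraries each). This difference was smaller among the members with few UMIs from lists of somatic cell genes. Those lists hold the X-linked genes Rhox8 and Tsx, so they are not independent of the X-linked share. The part of other cells' RNA in the difference was not tested. Lists of Sertoli, Leydig, macrophage, endothelial and peritubular or stromal markers reached 10 UMIs per 10000 in 16 of 35 and 8 of 37 TO members and in 50 of 363 and 20 of 426 testis members. Among members under that level with at least 5000 UMIs, 17 and 24 in TOs and 231 and 257 in testes, TO members had shares of 0.147% and 0.135% and testis members of 0.159% and 0.0865% (exact permutation test, p = 1 with 2 libraries each). The values overlapped. Within the study's own limits, where 10 members were left in each TO library, the shares were 2.23% and 0.829% in TOs and 0.384% and 0.310% in testes and did not overlap, and the somatic lists summed to 58.7 and 14.4 UMIs per 10000 in TOs and 4.90 and 3.20 in testes.

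Members of TOs and testes were then compared gene by gene, with UMIs summed over members of each library. The quasi-likelihood test of edgeR called 332 of 12597 genes, 2.64%, taking an adjusted p (Benjamini-Hochberg) under 0.01 with more than a 2-fold change. Of these 48 (0.381%) were higher and 284 (2.25%) lower in TOs. Under the study's own limits this balance turned, with 175 higher and 49 lower. No tested gene of the axis list (17 of 19 tested), the recombination list (28 of 32), the sex body list (10 of 10), the piRNA list (20 of 22), the transcription list (12 of 16), the RNA-binding list (15 of 15), the heat shock list (11 of 12) or the division list (12 of 15) was called, 0 of 124 in all, and DESeq2 also called 0 of them. These lists hold Sycp1, Sycp3, Piwil1, Pou5f2, Dmc1 and Ccna1, on which the rule chose cells of both conditions, so nothing is read from these 6 genes. At an unadjusted p under 0.05 in edgeR there were 17 of the 124, 7 higher and 10 lower in TOs, beside 3245 of all 12597 genes tested. The numbers in brackets passed a filter on low counts. Their median log2 fold changes were 0.03, 0.34, 0.28, 0.05, -0.14, 0.16, -0.13 and -0.36, beside -0.02 over all genes tested. A gene that missed the threshold is not shown to be equal. Hspa1l, a testis relative of HSP70, had a log2 fold change of -3.81 ± 0.72 SE (adjusted p = 0.0146, edgeR) and Plk1 one of -1.86 ± 0.50 SE (adjusted p = 0.0513, edgeR). Some other lists above held calls, all lower in TOs, beside 2.25% of all genes tested. They were 2 of 16 energy genes (Gapdhs, Hk1) and 2 of 9 histone genes (Hils1, H2al2a). The sperm protein genes gave 3 of 18 (Tssk1, Tssk2 and Spag6). The same genes were called in members with at least 5000 UMIs and few somatic UMIs. These calls were not kept without testis 1, where a single testis library was left. Gapdhs, Hils1, H2al2a, Tssk1, Tssk2 and Spag6 were below Leydig cells in both testes. The limit on somatic UMIs does not address free RNA of spermatids, and its part in these calls was not tested. Lists of checkpoint genes (8 tested), X-linked parents (6) and autosomal copies (7) held none.

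The levels of some genes described above are given as examples. They are not the leading genes ranked above, which went in both directions. Of those, Tdrd1 was at 2.28 and 2.31 UMIs per 10000 in TO members and 3.11 and 2.50 in testis members. Gstt2 was at 2.21 and 3.83 in TO members and 1.90 and 2.00 in testis members. Sycp3 is a rule gene, and nothing is read from its level. Sycp3 was at 7.81 and 10.9 UMIs per 10000 in TO members and 6.38 and 9.36 in testis members, Hspa2 at 20.6 and 21.7 against 20.6 and 22.9, Tdrd5 at 2.72 and 3.15 against 2.09 and 2.21, Cyct at 8.22 and 10.3 against 6.76 and 9.54, and Psmc3ip at 4.89 and 5.60 against 5.55 and 6.78. Ldhc was at 43.1 and 34.6 against 55.7 and 50.4, with both TO libraries lower, and H2afx at 4.13 and 4.27 against 1.63 and 2.67, with both higher. Neither was called (log2 fold change -0.55 ± 0.21 SE for Ldhc and 0.87 ± 0.26 SE for H2afx, edgeR). Among members with at least 5000 UMIs and few somatic UMIs, Ldhc was at 52.7 and 35.3 in TOs and 57.3 and 50.8 in testes. There TO 1 lay between the testes. On the early-to-late score, among members with at least 5000 UMIs and few somatic UMIs, 62.5% of 24 cells in TO 2 were below the mean boundary of the early tercile of testes. The share was 35.3% of 17 cells in TO 1, between the 22.5% of testis 1 and the 38.5% of testis 2.

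Genes of spermatids were among those lower. All 8 genes of the elongating spermatid list and 5 of 9 of the round spermatid list were called lower in TO members, beside 2.25% of all genes tested. Of the former, Tnp1, Tnp2, Prm1 and Prm2 were limited by the rule, so their calls are not read as results. Without testis 1 these 4 were the ones still called, and none of the other genes of both lists was. In members with at least 5000 UMIs and few somatic UMIs Odf1 lost its call, and the other 7 of the former list and the same number of the latter, 5, were called. Smcp, of the sperm mitochondrial capsule, was at 0.97 and 1.18 UMIs per 10000 in testis members and had no UMI in TO members, at least 98.8-fold lower taking 3 UMIs over both TO libraries as the floor. Acrv1, of the acrosome, was at least 36.2-fold lower on the same floor. The rule gene Prm1 was at 4.16 and 8.31 in testis members and had no UMI in TO members. In Leydig cells of the testes Prm1 was at 7.32 and 18.1 UMIs per 10000, more than in the members. For 268 of the 284 genes lower in TOs, the level in all other kept testis cells exceeded that in testis members, and for 45 of the 48 higher genes the level in all other kept TO cells exceeded that in TO members. Among the latter were Hsd3b1, a steroid enzyme of Leydig cells, at 0.92 and 0.68 in TO members and 8.59 and 6.18 in the other TO cells, and Gas6, a ligand of TAM receptors, at 1.40 and 1.12 and at 13.8 and 12.8. What part of these calls comes from free RNA or shared droplets was not tested.

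Genes with at least 1 UMI per 10000 in both libraries of a condition, and not 5-fold higher in other cells, left 14 lower and 1 higher. A gene could pass this level through the condition where it was high. The split and the gaps between libraries are therefore a description only. Nmnat3, an enzyme of NAD synthesis, was the 1 higher gene, at 1.61 and 1.29 UMIs per 10000 in TO members and 0.38 and 0.52 in testis members (log2 fold change 1.58 ± 0.23 SE, adjusted p = 0.00524, edgeR quasi-likelihood test). The TO and testis libraries did not overlap. The 10 lower genes with the largest change were Gm3417, 1700010B08Rik, Fgf14, Aqp11, Gm12648, Prps1l1, Nuggc, Mroh2b, Lrrc23 and Gykl1. Gm3417 was at 9.56 and 12.8 in testis members and 0.70 and 0.63 in TO members (log2 fold change -4.17 ± 0.26 SE, adjusted p = 0.000435, edgeR). Fgf14, a modulator of sodium channels, was at 2.55 and 3.43 and at 0.51 and 0.66 (log2 fold change -2.42 ± 0.26 SE, adjusted p = 0.00132, edgeR). Aqp11, an aquaporin of intracellular membranes, was at 1.92 and 2.24 and at 0.409 and 0.578 (log2 fold change -2.14 ± 0.25 SE, adjusted p = 0.00183, edgeR). The other 7 lower genes had log2 fold changes from -2.92 to -1.36. All 10 were also lower in the other kept cells of TOs than in those of testes. Aqp11 was at 6.71 and 8.72 in the other testis cells, above its level in members, and at 0.152 and 0.250 in the other TO cells, and Gykl1 was at 5.66 and 3.06 and at 0.0409 and 0.114. The part of free RNA in these calls was not tested. Without testis 1 the test called 9 genes in all, and of these 11 named genes it called Gm3417 alone, while the log2 fold changes were -4.40 for Gm3417, -2.65 for Fgf14, -2.28 for Aqp11 and 1.33 for Nmnat3. Within the study's limits 3 of the 11 were called and Nmnat3 had a log2 fold change of 0.80 (adjusted p = 0.512, edgeR), and with at least 16 UMIs per 10000 of the 4 markers 5 of the 11 were called. With the 488 testis and 41 TO members that had at least 5000 UMIs and few somatic UMIs it called 144, of which 6 higher and 131 lower genes were also among the 332. It then called 6 of the 11 named genes, without Gm12648, Nuggc, Mroh2b, Lrrc23 and Gykl1, and Hsd3b1 was no longer called (adjusted p = 0.0404, edgeR). Among the somatic markers Lyz2, of macrophages, and Acta2, of peritubular cells, were called higher in TO members there (adjusted p = 0.00556 and 0.00316, edgeR) and not over all members.

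**Figure D5:**
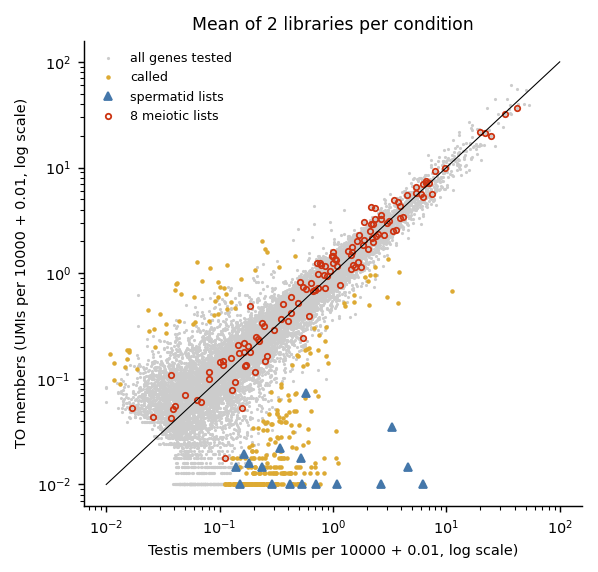
Each point is a tested gene, with the mean level of 2 testis libraries and of 2 TO libraries in members (UMIs per 10000 plus 0.01, log axes) and the line of equal level. Called genes, the spermatid lists and 8 lists of meiotic genes are marked. No gene of these 8 lists was called, though some lie off the line, such as Hspa1l (log2 fold change -3.81) and Hspa1a (2.58), and spermatid genes lie at the bottom, at 0.07 UMIs per 10000 or less in TOs. The energy, histone and sperm protein lists, which held calls, are not among the 8.

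Markers of other cells were found at different levels in members. In testis 1, testis 2, TO 1 and TO 2 the 8 Sertoli markers summed to 1.89, 0.59, 9.38 and 2.02 UMIs per 10000, with Aard the most abundant in each (0.72, 0.25, 4.28 and 0.95). The 6 Leydig markers summed to 0.42, 0.41, 3.47 and 1.60, the 7 peritubular or stromal markers to 1.21, 0.31, 2.53 and 2.07, the 8 macrophage markers to 0.44, 0.11, 0.18 and 0.45 and the 6 endothelial markers to 0.17, 0.05, 0.08 and 0.04. In TO 1 there were 5 macrophage and 3 endothelial markers at 0. The 8 spermatogonial markers summed to 0.38, 0.21, 1.20 and 0.28. The 9 round spermatid markers summed to 3.26, 2.63, 0.10 and 0.10, with 5 at 0 in each TO library, and the 8 elongating spermatid markers to 12.2, 26.1, 0.06 and 0.01. Scrublet placed 13.5%, 6.10%, 25.7% and 10.8% of the members among the highest-scoring barcodes, against 9.75%, 9.46%, 11.7% and 9.99% of all barcodes in these libraries. With those barcodes removed, 714 testis and 59 TO members were left, the mean X-linked share of testis members was 0.152%, and edgeR called 339 genes, of which 33 higher and 262 lower genes were also among the 332. Of the 11 named genes, Gm12648 was then no longer called (adjusted p = 0.0246, edgeR).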

How the data were processed

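The submitters' processing notes name Cell Ranger 7.1.0 and build mm10. The authors deposited unnormalized UMI counts, 1 matrix a library, without their upper limits or doublet removal applied. Gene positions came from GENCODE vM21 (GRCm38), where 32235 of 32285 gene IDs were found, 1084 of them X-linked. Members followed the rule given above, and counts were summed over members of each library. TO and testis sums were tested in R 4.3.3 with edgeR 4.0.16 (TMM, filterByExpr, quasi-likelihood F test), with DESeq2 1.42.0 as an alternative. On simulated sums of 12411 tested genes the TO against testis test recovered 86% of 4-fold and 100% of 8-fold changes. The changed genes were drawn from those above a minimum mean level, and every gene was given the same common dispersion. Recovery of changes in genes of low level or higher variation was not measured. Scrublet (scanpy 1.11.5) gave doublet scores (0.8% per 1000 barcodes) and removed only as an alternative. Other software was Python 3.11.15, scipy 1.17.1 and matplotlib 3.10.9. Per the study's methods and supplement, TOs came from 2 independent batches and the testes were 2 biological replicates. The number of animals in a library is not given in the sources used here.

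Named genes were the listed genes, the 15 most abundant, the 15 leading and 8 X-linked genes in testis members, 8 per direction between testes, and up to 10 called genes per direction between TOs and testes. Leydig cells were chosen at 20 or more UMIs of Cyp11a1, Cyp17a1, Insl3 and Hsd3b1. Members and lists were chosen with earlier results of these data known. SEs were computed from the fold change and the F statistic. Limits of 5000 UMIs and of 10 UMIs per 10000 of somatic genes were chosen after seeing the data. Some genes that these rules select are not reported here.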

Additional observations from a re-analysis of the deposited data

How the results depend on the processing

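The rule found 789 testis and 72 TO members. With the study's limits of 5000 genes and 20000 UMIs there were 454 and 20, and with 16 UMIs per 10000 of the 4 markers 488 and 41. At least 5000 UMIs left 521 testis members, and adding the limit on somatic genes left 488 and 41. Single libraries gave 363 to 426 and 35 to 37. The X-linked share of testis members averaged 0.207%, moved to 0.347% under the study's limits, and was 0.134% to 0.280% with a testis left out. The difference in X-linked share, TO minus testis, was 0.205 percentage points (0.0606 to 0.348 with a library left out), was 1.18 under the study's limits and reversed to -0.00338 when members with somatic genes were left out. The difference in the share of kept cells was -3.52 to -2.76 percentage points with a library left out and -5.96 (at least 5000 UMIs) to -1.96 (16 UMIs per 10000 of the 4 markers) over all alternatives, and kept its direction throughout.

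The count of 332 genes called between TOs and testes was 55 with 16 UMIs per 10000 of the 4 markers, 198 with at least 2000 genes a cell, 206 with at least 5000 UMIs, 144 with few somatic UMIs as well, and 40 for genes under 5 times the member level in other cells. It was 584 by DESeq2 and 1592 with every gene that had a count. Leaving out a library gave 9 to 830 calls, with 9 without testis 1, 628 without TO 1 and 830 without TO 2. The split was 48 higher and 284 lower, 175 and 49 under the study's limits, and 325 and 505 without TO 2. The lone library left was assumed to vary like the other group. With the replicate number as a block there were 1281 calls, including all 332. The replicate numbers are shared labels only. The residuals of same-numbered libraries correlated at 0.286, which with 2 pairs cannot show pairing. The causes were not tested. Of genes on the 8 meiotic lists none was called, except Hspa1l without TO 1, Hspd1, Pou5f2 and Stra8 without TO 2, and Dnajb13, Hspa1l, Hspd1 and Plk1 under the block and with every gene that had a count. None of the 11 named genes changed direction under any alternative, and Gm3417, with a log2 fold change of -4.17, had no UMI in TO members under the study's limits, at least 39.0-fold lower with 3 UMIs over both TO libraries as the floor.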
